A study of Mus musculus with 4 samples.

Results

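Claudins and other proteins of the tight junction are encoded by the genes described here, which were measured by RNA-seq in 4 libraries of NMuMG, a mouse line of mammary gland epithelium. The genes were chosen by symbol: 9 were listed, of which Cldn4, Cldn6, Ocln, Marveld2, F11r, Tjp1 and Tjp3, 7 of the 21971 genes counted, are described. Cldn3 and Cldn7 were not analysed here. All cells overexpressed a mutated human TRF1, a protein that binds telomeric DNA, and were grown in medium with serum and insulin. In the Vp16-TRF1ΔN line it was fused to Vp16, a transcription activation domain of viral origin, and in the TRF1ΔN line it was not. According to the series description the fusion raises telomeric noncoding RNA of the TERRA type, and the question was how that changes the epithelial-to-mesenchymal transition (EMT). Each line was sampled after 24 h with TGFβ at 5 ng/ml and at 0 h as the control, so the 4 groups had 1 library each. The labels do not say whether a line was 1 clone or a pool, and they name no 24 h library without TGFβ, so TGFβ and time in culture cannot be told apart.

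Tight junctions seal the space between neighbouring epithelial cells near their apical surface. Claudins form the strands that close this space or make it selectively permeable to ions. The MARVEL proteins occludin and tricellulin sit in the strands and at the points where cells meet in a corner, junctional adhesion molecules lie beside them, and the ZO proteins anchor all of these to actin from the cytoplasm. During EMT epithelial cells take their junctions apart, and the zinc finger factors Snail and Zeb, which bind E-box sequences, are known to repress several of these genes.

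Total counts were 35423556 for Vp16-TRF1ΔN at 24 h and 41958849 at 0 h, against 43379387 for TRF1ΔN at 24 h and 46001039 at 0 h. The row of the VP16 construct had 27 and 15 counts in the Vp16-TRF1ΔN libraries of 24 h and 0 h, against 1 and 0 in those of the TRF1ΔN line. The TRF1DN row had 159 and 123 counts in the Vp16-TRF1ΔN libraries against 7798 and 1863 in the TRF1ΔN ones, so the level of the construct differed between the lines and the times too. Its part in the results was not tested. Of the epithelial markers chosen for the check, Cdh1, Krt8, Krt18, Krt19 and Crb3 averaged at least 7.35 CPM, Epcam had at most 18 counts and Esrp1 at most 3, and the mesenchymal marker Vim averaged 3371 CPM. CPM (counts-per-million) are counts over the scaled size of the library. With TGFβ Cdh1, Krt19 and Crb3 fell, with log2 changes of -1.46, -3.42 and -2.05, whereas Krt8 and Krt18 rose by 0.30 and 0.56. Of the 5 mesenchymal markers Fn1, Zeb1 and Cdh2 rose by 3.50, 1.95 and 1.31, Pdgfrb was called higher with 36 and 217 counts at 24 h in the Vp16-TRF1ΔN and TRF1ΔN lines against 1 and 0 at 0 h, and Vim did not pass (log2 change 0.16, adjusted p = 0.147, edgeR quasi-likelihood test). Pdgfrb entered the test only through its 24 h libraries, so some difference was a condition of being tested. Among markers of other cell types, Ptprc of immune cells had at most 7 counts, Lyz2 at most 10, Pecam1 and Tek of endothelium at most 3 and 2, and Adipoq of adipocytes at most 1. Pparg, which adipocytes also express, had 631 to 973 counts, and Cd68, of macrophages, 110 to 150. Cdh5, another endothelial gene, had 24 and 50 counts at 24 h in the Vp16-TRF1ΔN and TRF1ΔN lines against 5 and 4 at 0 h, and Csf1r, of macrophages, had 21 and 101 against 2 and 1. The summed CPM of the 3 endothelial markers measured were 0.759 and 1.31 at 24 h in the Vp16-TRF1ΔN and TRF1ΔN lines, against 0.186 and 0.147 at 0 h, and those of the 4 immune markers were 3.85 and 5.35, against 3.48 and 3.53. Mitochondrial genes took 15.7% and 13.3% of the counts at 24 h, against 11.4% and 10.2% at 0 h. The part of these differences in the results was not tested.

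Promoters of 2 genes that rose with TGFβ (Cldn4, F11r) and 2 that fell (Tjp3, Ocln) are printed to show which motifs lie beside the start sites. They were taken from RefSeq on build GRCm38.p6, which had an entry for 9 of 9 listed genes, and run from 250 bases before the transcript start to 30 bases after it, 5′ to 3′ on the gene's strand. Capitals mark the E-box CAGGTG or its reverse complement CACCTG, and the AP-1 motif TGANTCA, which reads the same on both strands and does not overlap the E-boxes here. The windows lie at chr5:134946905-134947184 (minus strand, Cldn4), chr10:81291552-81291831 (minus strand, Tjp3), chr13:100552689-100552968 (minus strand, Ocln) and chr1:171437311-171437590 (plus strand, F11r).
Cldn4: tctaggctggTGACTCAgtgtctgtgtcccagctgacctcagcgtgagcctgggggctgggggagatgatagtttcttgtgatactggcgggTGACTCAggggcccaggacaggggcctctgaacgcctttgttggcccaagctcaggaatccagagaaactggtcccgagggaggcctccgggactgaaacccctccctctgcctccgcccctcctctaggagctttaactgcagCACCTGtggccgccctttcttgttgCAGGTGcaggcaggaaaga
Tjp3: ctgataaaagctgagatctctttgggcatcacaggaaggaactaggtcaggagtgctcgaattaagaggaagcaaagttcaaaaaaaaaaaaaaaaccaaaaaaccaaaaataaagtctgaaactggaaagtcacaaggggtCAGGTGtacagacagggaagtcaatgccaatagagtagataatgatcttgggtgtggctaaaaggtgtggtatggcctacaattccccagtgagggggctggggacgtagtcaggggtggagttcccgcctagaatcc
Ocln: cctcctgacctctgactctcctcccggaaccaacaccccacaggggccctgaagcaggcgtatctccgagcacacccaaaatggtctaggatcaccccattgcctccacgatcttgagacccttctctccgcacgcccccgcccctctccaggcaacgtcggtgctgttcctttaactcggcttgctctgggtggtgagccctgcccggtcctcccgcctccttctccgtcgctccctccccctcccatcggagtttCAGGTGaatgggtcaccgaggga
F11r: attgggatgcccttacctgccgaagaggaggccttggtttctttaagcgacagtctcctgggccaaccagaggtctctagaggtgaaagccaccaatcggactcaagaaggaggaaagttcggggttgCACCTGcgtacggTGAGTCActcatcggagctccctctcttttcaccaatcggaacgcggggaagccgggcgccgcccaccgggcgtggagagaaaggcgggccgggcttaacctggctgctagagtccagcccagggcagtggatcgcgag

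In Cldn4 the E-boxes began 14 bases before the start and at base 12 of the transcript, and the AP-1 motifs 240 and 158 bases before the start. In Tjp3 an E-box lay 108 bases before the start, in Ocln it began at base 8 of the transcript, and in F11r an E-box and an AP-1 motif lay 122 and 109 bases before it. Over windows of 300 bases, 8 of the 9 listed genes had an E-box at one of their start sites, Tjp1 being the exception. That is 11 of their 13 windows, against 20.2% of 32851 windows of all genes. The only window of Tjp1 (chr7:65371195-65371494, minus strand) lay inside the gene, whose upstream end is at 65527781. The start at that end was not searched. The 2 windows of Ocln overlap and share an E-box, as do those of Marveld2, so these sites were counted in both windows. The share over all genes is per window, whereas a listed gene could have an E-box in either of 2 windows. An AP-1 motif was present in 2 of the 9, Cldn4 and F11r, in 2 of the 13 windows, against 7.81% of all windows. A match of letters does not show that a factor binds.

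After 24 h of TGFβ the tight junction genes went in both directions. Tjp3, Marveld2, Ocln and Tjp1, which encode ZO-3, tricellulin, occludin and ZO-1, fell, while F11r, which encodes the adhesion molecule JAM-A, rose moderately and Cldn4, close to absent at 0 h, rose too. The average response of the lines was tested with edgeR's quasi-likelihood test in a model of line plus TGFβ, whose spread rests on 1 residual degree of freedom, with Benjamini-Hochberg adjustment over 14305 genes. Of the 6 genes tested 2 rose and 4 fell. Across all genes tested 23.1% rose and 25.4% fell, 48.5% in all, so that a call alone does not set these genes apart. Their median log2 change was -0.70, beside -0.01 over all genes tested. With 1 library per group, the spread used in the test is how far the responses of the 2 lines differ, estimated with information shared across genes. Whether libraries came from separate cultures is not stated, so p-values cover only these 4 libraries and not the variation between repeated cultures. Bulk RNA also cannot tell fewer cells with a transcript from less transcript per cell. For several genes below, both 24 h libraries lay above or below both 0 h libraries. How many of all genes separated in this way was not counted, so such separation does not set these genes apart.

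**Figure D1:**
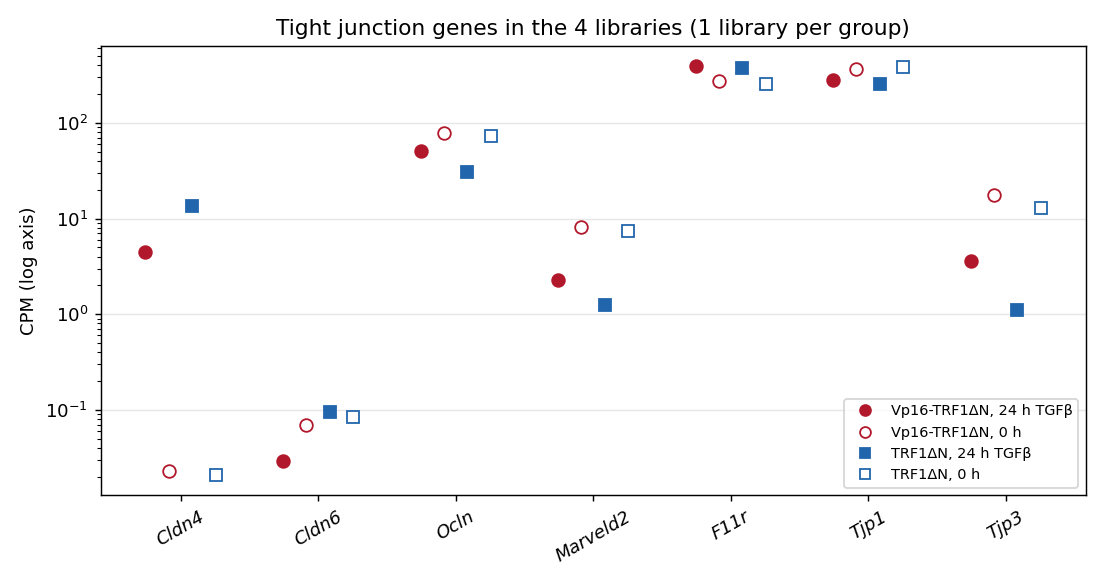
Level of 7 tight junction genes in CPM on a log axis, 1 point per library, with filled symbols for 24 h of TGFβ and open symbols for 0 h. Cldn4 stands at 4.44 and 13.4 CPM at 24 h and near 0.02 CPM at 0 h, whereas Tjp3, Marveld2, Ocln and Tjp1 are lower at 24 h in each line.

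Claudin genes differed most from one another. Cldn4, a barrier-forming claudin with a single exon on chromosome 5 (134945119 to 134946934, minus strand, GRCm38), had 152 counts at 24 h and 1 count at 0 h in the Vp16-TRF1ΔN line, and 563 counts at 24 h and 1 count at 0 h in the TRF1ΔN line. In CPM these are 4.44 and 0.0232 in the Vp16-TRF1ΔN line, and 13.4 and 0.0210 in the TRF1ΔN line. Both 24 h libraries thus lay far above both 0 h libraries, and the TRF1ΔN line was higher at 24 h. In the Vp16-TRF1ΔN line the 24 h level was 191 times that at 0 h (95% counting interval 33.8 to 7600.3), and in the TRF1ΔN line 637 times (114 to 25212). Those wide intervals come from the single counts at 0 h. They are exact and cover counting error only. The average response passed the test (adjusted p = 0.000858, edgeR quasi-likelihood test), but the gene entered the test only through its 24 h libraries, so some difference was a condition of being tested. In the authors' deposited log2 normalized values Cldn4 stood at 7.52 and 9.11 at 24 h in the Vp16-TRF1ΔN and TRF1ΔN lines, against 0.97 and 0.90 at 0 h.

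Cldn6, a claudin of early epithelia encoded on chromosome 17 (23679249 to 23682446, plus strand), had 1 count at 24 h and 3 at 0 h in the Vp16-TRF1ΔN line, against 4 at each time in the TRF1ΔN line. It was not tested, and at this depth no difference between any of the libraries was detectable. Cldn9, which lies 137 bases away, was as scarce, with at most 4 counts in any library.

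Of 19 other claudins listed, 8 were measured and 4 tested, of which 2 rose and 2 fell, beside 23.1% and 25.4% of all genes tested. Cldn2, which forms channels for small cations, had the highest level of the 10 claudins measured, while Cldn3, Cldn7 and 11 of the other listed claudins were not analysed here. It had 532 CPM at 24 h and 741 CPM at 0 h in the Vp16-TRF1ΔN line, and 413 CPM at 24 h and 694 CPM at 0 h in the TRF1ΔN line. Both treated libraries were below both untreated ones, and the log2 change was -0.61 ± 0.09 (SE, adjusted p = 0.00763, edgeR quasi-likelihood test). Cldn12 rose by 0.29 ± 0.07 on the log2 scale (adjusted p = 0.0271 in edgeR's test). It had 81.4 and 80.2 CPM at 24 h in the Vp16-TRF1ΔN and TRF1ΔN lines, against 63.5 and 68.3 CPM at 0 h. The other calls concerned scarce genes and were named after their values were seen: Cldn23 rose, with 11 and 36 counts at 24 h in the Vp16-TRF1ΔN and TRF1ΔN lines against 5 and 5 at 0 h, and Cldn18 fell, with 8 and 15 counts against 79 and 74. Cldn23 entered the test only through its 24 h libraries and Cldn18 only through its 0 h libraries, so some difference was a condition of being tested, as for Cldn4. DESeq2's Wald test called neither Cldn12 (adjusted p = 0.113) nor Cldn23 (adjusted p = 0.174).

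**Figure D2:**
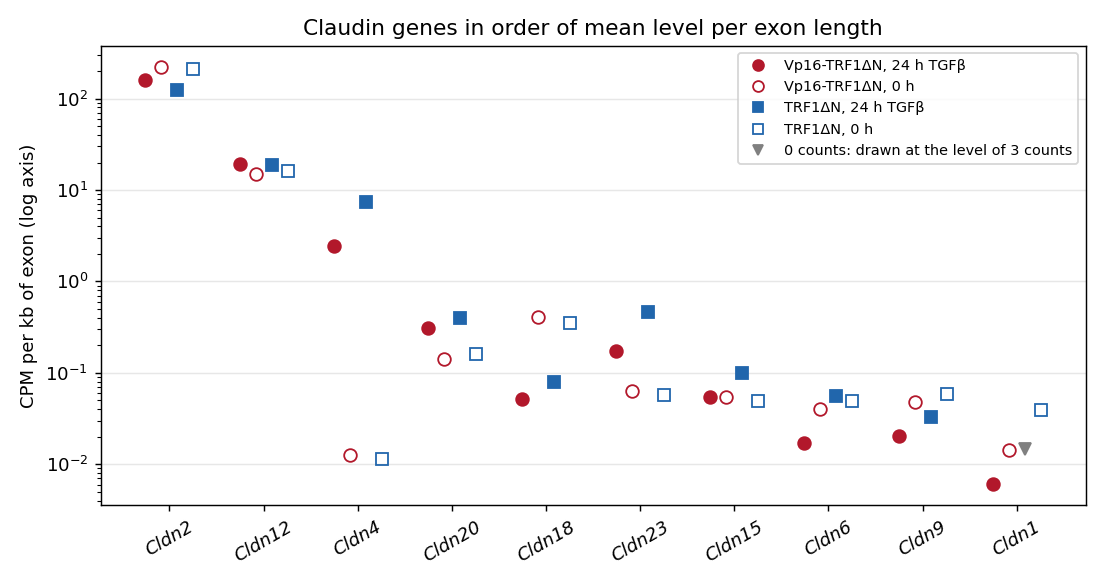
Level of 10 claudin genes in CPM per kb of exon on a log axis, ordered by their mean, 1 point per library, with filled symbols for 24 h of TGFβ and open symbols for 0 h. Cldn2 is highest in each library, followed by Cldn12 and, at 24 h, by Cldn4, while at 0 h Cldn4 is near 0.01 CPM per kb.

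Set per exon length, the claudins kept the order Cldn2 then Cldn12 in each library. Cldn2 had 160 CPM per kb of exon at 24 h and 223 at 0 h in the Vp16-TRF1ΔN line, and 124 at 24 h and 209 at 0 h in the TRF1ΔN line. Cldn12 lay at 19.2 and 15.02 CPM per kb in the Vp16-TRF1ΔN line and at 19.0 and 16.1 in the TRF1ΔN line, below the lowest value of Cldn2. At 24 h Cldn4 came next, with 2.44 CPM per kb in the Vp16-TRF1ΔN line and 7.36 in the TRF1ΔN line, against 0.0128 and 0.0116 at 0 h. Cldn2 made up 87.7% and 81.9% of the summed level per kb of 10 claudins at 24 h in the Vp16-TRF1ΔN and TRF1ΔN lines, against 93.4% and 92.5% at 0 h. Cldn4 made up 1.34% and 4.85% at 24 h, against 0.0054% and 0.0051% at 0 h. The levels of Cldn20, Cldn18, Cldn23, Cldn15, Cldn6, Cldn9 and Cldn1 were at most 0.463 CPM per kb in every library.

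The MARVEL genes fell. Marveld2, which encodes tricellulin of tricellular contacts, is on chromosome 13 (100595957 to 100616971, minus strand). It had 78 counts at 24 h and 348 at 0 h in the Vp16-TRF1ΔN line, and 52 counts at 24 h and 352 at 0 h in the TRF1ΔN line. Its level was 2.28 and 8.07 CPM in the Vp16-TRF1ΔN line and 1.24 and 7.39 CPM in the TRF1ΔN line. The treated libraries did not overlap the untreated ones, and the log2 change was -2.18 ± 0.24 (SE, adjusted p = 0.00382, edgeR quasi-likelihood test). Ocln, which encodes occludin, lies 43.2 kb from Marveld2 on the same strand (100496507 to 100552718), with no protein-coding gene between them. It had 1728 counts at 24 h and 3360 at 0 h in the Vp16-TRF1ΔN line, and 1286 counts at 24 h and 3435 at 0 h in the TRF1ΔN line. That is 50.4 and 78.0 CPM in the Vp16-TRF1ΔN line, and 30.6 and 72.1 CPM in the TRF1ΔN line. Ocln fell by 0.93 ± 0.16 on the log2 scale (SE, adjusted p = 0.0116, edgeR quasi-likelihood test), with both 24 h libraries below both 0 h libraries.

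Among the list of MARVEL proteins and angulins, the receptors that bring tricellulin to corners, 3 of 4 genes were tested and 3 fell. The share that fell over all genes tested was 25.4%. Ildr2 fell by 1.38 ± 0.21 on the log2 scale, with 126 and 73.1 CPM at 24 h in the Vp16-TRF1ΔN and TRF1ΔN lines against 245 and 254 CPM at 0 h. Lsr, the angulin of many epithelia, fell by 0.92 ± 0.08, with 41.3 and 49.3 CPM at 24 h against 84.6 and 86.5 CPM at 0 h. Adjusted p of Ildr2 and Lsr was 0.00848 and 0.00267 in edgeR's quasi-likelihood test. Marveld3, the remaining MARVEL gene of the junction, was scarce, with 16 and 7 counts at 24 h against 42 and 39 at 0 h, and entered the test only through its 0 h libraries. Its call (adjusted p = 0.0374 in edgeR's test) was not made by DESeq2's Wald test (adjusted p = 0.197) or without the line term (adjusted p = 0.0648).

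The gene of JAM-A rose. F11r, on chromosome 1 (171437535 to 171464603, plus strand), had 13365 counts at 24 h and 11700 at 0 h in the Vp16-TRF1ΔN line, and 15863 counts at 24 h and 12100 at 0 h in the TRF1ΔN line. In CPM it had 390 and 271 in the Vp16-TRF1ΔN line and 377 and 254 in the TRF1ΔN line. Both 24 h libraries were above both 0 h libraries, and the log2 change was 0.55 ± 0.06 (SE, adjusted p = 0.00443, edgeR quasi-likelihood test). Per exon length it was 146 and 102 CPM per kb in the Vp16-TRF1ΔN line and 142 and 95.4 in the TRF1ΔN line, the highest of the 7 main genes in each library. Of 6 related immunoglobulin-like genes 5 were measured and 3 tested, 1 of which rose and 2 fell, beside 23.1% and 25.4% of all genes tested. Jam2, which encodes JAM-B, rose by 0.64 ± 0.07 on the log2 scale, with 63.2 and 64.6 CPM at 24 h in the Vp16-TRF1ΔN and TRF1ΔN lines, against 38.9 and 43.2 CPM at 0 h. Cxadr, which encodes the coxsackievirus and adenovirus receptor, a junctional adhesion protein, fell by 1.16 ± 0.15, with 105 and 71.4 CPM at 24 h against 192 and 196 CPM at 0 h. Adjusted p of Jam2 and Cxadr was 0.00409 and 0.00581 in edgeR's quasi-likelihood test. Igsf5 was the other gene called lower, named after its values were seen, with 15 and 26 counts at 24 h against 38 and 58 at 0 h. DESeq2's Wald test did not call it (adjusted p = 0.403), nor did the model without the line term (adjusted p = 0.0740).

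The genes of ZO-3 and ZO-1 differed in the size of their fall. Tjp3, which encodes ZO-3, a scaffold restricted to epithelia, is on chromosome 10 (81273207 to 81291581, minus strand). It had 123 counts at 24 h and 751 at 0 h in the Vp16-TRF1ΔN line, and 47 counts at 24 h and 610 at 0 h in the TRF1ΔN line. Its level was 3.59 and 17.4 CPM in the Vp16-TRF1ΔN line and 1.12 and 12.8 CPM in the TRF1ΔN line. Treated and untreated libraries did not overlap, and at each time the Vp16-TRF1ΔN library was the higher one. The log2 change was -2.81 ± 0.32 (SE, adjusted p = 0.00403, edgeR quasi-likelihood test), the deepest fall among the 6 genes tested. Tjp3 shares 40 exonic bases with Apba3 on the opposite strand, which had 1315 to 1779 counts in the 4 libraries. Whether the counting used strand is not stated in the sources used here.

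Tjp1, which encodes ZO-1, the main scaffold of the tight junction, is on chromosome 7 (65296165 to 65527781, minus strand). It had 9687 counts at 24 h and 15840 at 0 h in the Vp16-TRF1ΔN line, and 10845 counts at 24 h and 18096 at 0 h in the TRF1ΔN line. The corresponding levels were 283 and 367 CPM in the Vp16-TRF1ΔN line and 258 and 380 CPM in the TRF1ΔN line. Tjp1 fell by 0.47 ± 0.08 on the log2 scale (SE, adjusted p = 0.00984, edgeR quasi-likelihood test). This was a smaller fall than those of Tjp3, Marveld2 and Ocln. Per exon length Tjp1 had 36.2 and 33.0 CPM per kb at 24 h in the Vp16-TRF1ΔN and TRF1ΔN lines, against 47.0 and 48.6 at 0 h. Tjp3 was far lower, with 0.966 and 0.301 CPM per kb at 24 h against 4.69 and 3.45 at 0 h.

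Other plaque scaffolds also moved in both directions. Of 12 listed, 12 were tested, 4 rose, 7 fell and 1 did not pass, with a median log2 change of -0.48. Across all genes tested 23.1% rose and 25.4% fell, with a median of -0.01. Cingulin (Cgn) and paracingulin (Cgnl1), which tie ZO proteins to myosin, fell by 1.06 ± 0.12 and 1.04 ± 0.11 on the log2 scale. Cgnl1 had 231 and 158 CPM at 24 h in the Vp16-TRF1ΔN and TRF1ΔN lines, against 419 and 370 CPM at 0 h. Magi3, a membrane-associated guanylate kinase, fell by 0.92 ± 0.18, with 144 and 79.9 CPM at 24 h against 213 and 193 CPM at 0 h. Adjusted p of Cgn, Cgnl1 and Magi3 was 0.00381, 0.00345 and 0.0164 in edgeR's quasi-likelihood test, and Magi3 was not called without the line term (adjusted p = 0.0637). The angiomotin-like genes Amotl1 and Amotl2, whose proteins bind polarity complexes and the growth regulator YAP, rose by 1.84 ± 0.08 and 1.09 ± 0.10, while Amot, named after its values were seen, fell by 0.42 ± 0.08. Amotl1 had 139 and 179 CPM at 24 h against 41.6 and 47.0 CPM at 0 h, so treated libraries were above untreated ones in both lines. Mpdz, a scaffold with many PDZ domains, rose by 0.90 ± 0.21 from a low level, with 118 and 150 counts at 24 h against 92 and 79 at 0 h. Adjusted p of Amotl1, Amotl2, Amot and Mpdz was 0.000858, 0.00244, 0.0161 and 0.0256 in edgeR's test. DESeq2's Wald test did not call Mpdz (adjusted p = 0.130), nor Magi2 (adjusted p = 0.419), the remaining scaffold called higher, which had at most 23 counts and entered the test only through its 24 h libraries.

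Of 9 plaque-associated regulators 3 rose, 2 fell and 4 did not pass. Beside 23.1% higher and 25.4% lower over all genes tested, 48.5% in all, these counts do not set the regulators apart. Arhgef18 and Arhgef2, which encode guanine nucleotide exchange factors, rose by 1.03 ± 0.11 and 0.53 ± 0.08 on the log2 scale (adjusted p = 0.00352 and 0.00888, edgeR quasi-likelihood test). Arhgef18 had 159 and 209 CPM at 24 h in the Vp16-TRF1ΔN and TRF1ΔN lines, against 88.9 and 90.1 CPM at 0 h. Ybx3, which encodes the ZO-1-associated factor ZONAB, fell by 0.62 ± 0.06 (adjusted p = 0.00320), with 103 and 118 CPM at 24 h against 156 and 183 CPM at 0 h. The calls of Micall2 (0.40 ± 0.09, adjusted p = 0.0228) and Dnmbp (-0.28 ± 0.07, adjusted p = 0.0288) in edgeR's test were not made by DESeq2's Wald test (adjusted p = 0.0658 and 0.139). Micall2 was not called without the line term either (adjusted p = 0.0747). Epcam, whose protein binds claudins, had 4 and 11 counts at 24 h against 4 and 18 at 0 h and did not pass. Over all 32 tested genes of the 6 lists, 10 rose and 16 fell, beside 23.1% and 25.4% of all genes tested. Among those called, Cldn23 and Magi2 entered the test only through their 24 h libraries, and Cldn18 and Marveld3 only through their 0 h libraries. DESeq2's Wald test called 5 of the listed genes higher and 13 lower. Over all genes it called 2284 higher and 2626 lower of 15581, in place of 3305 and 3631 of 14305.

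Several of these calls were not made without 1 of the 0 h libraries. Over all genes too, far fewer were called without either of them, as the closing section gives, so this does not set these genes apart. Such a fit, made without the line term, takes its spread from the libraries at 24 h, which come from different lines. The log2 change of Ocln was -0.95 without the TRF1ΔN library at 0 h and -0.83 without the Vp16-TRF1ΔN one. With all libraries kept and no line term it was -0.89. For Tjp1 these values were -0.44, -0.49 and -0.47, and for F11r 0.50, 0.59 and 0.55. In a model without the line term, leaving out the TRF1ΔN library at 0 h gave an adjusted p of 0.0936 for Ocln, 0.132 for Tjp1 and 0.102 for F11r, and leaving out the Vp16-TRF1ΔN library at 0 h gave 0.119, 0.0969 and 0.0628. Without that Vp16-TRF1ΔN library Tjp3 also missed the threshold (adjusted p = 0.0523), while Marveld2 passed whichever library was left out (edgeR quasi-likelihood test). Cldn4 passed in each case too, but had to differ to be tested. Of the other genes named as called, Lsr, Cxadr, Amotl1, Amotl2 and Arhgef18 passed whichever library was left out, as did Cldn18 with the same limit as Cldn4, and each of the rest missed the threshold without at least 1 library, with adjusted p of 0.0502 to 0.406 there.

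**Figure D3:**
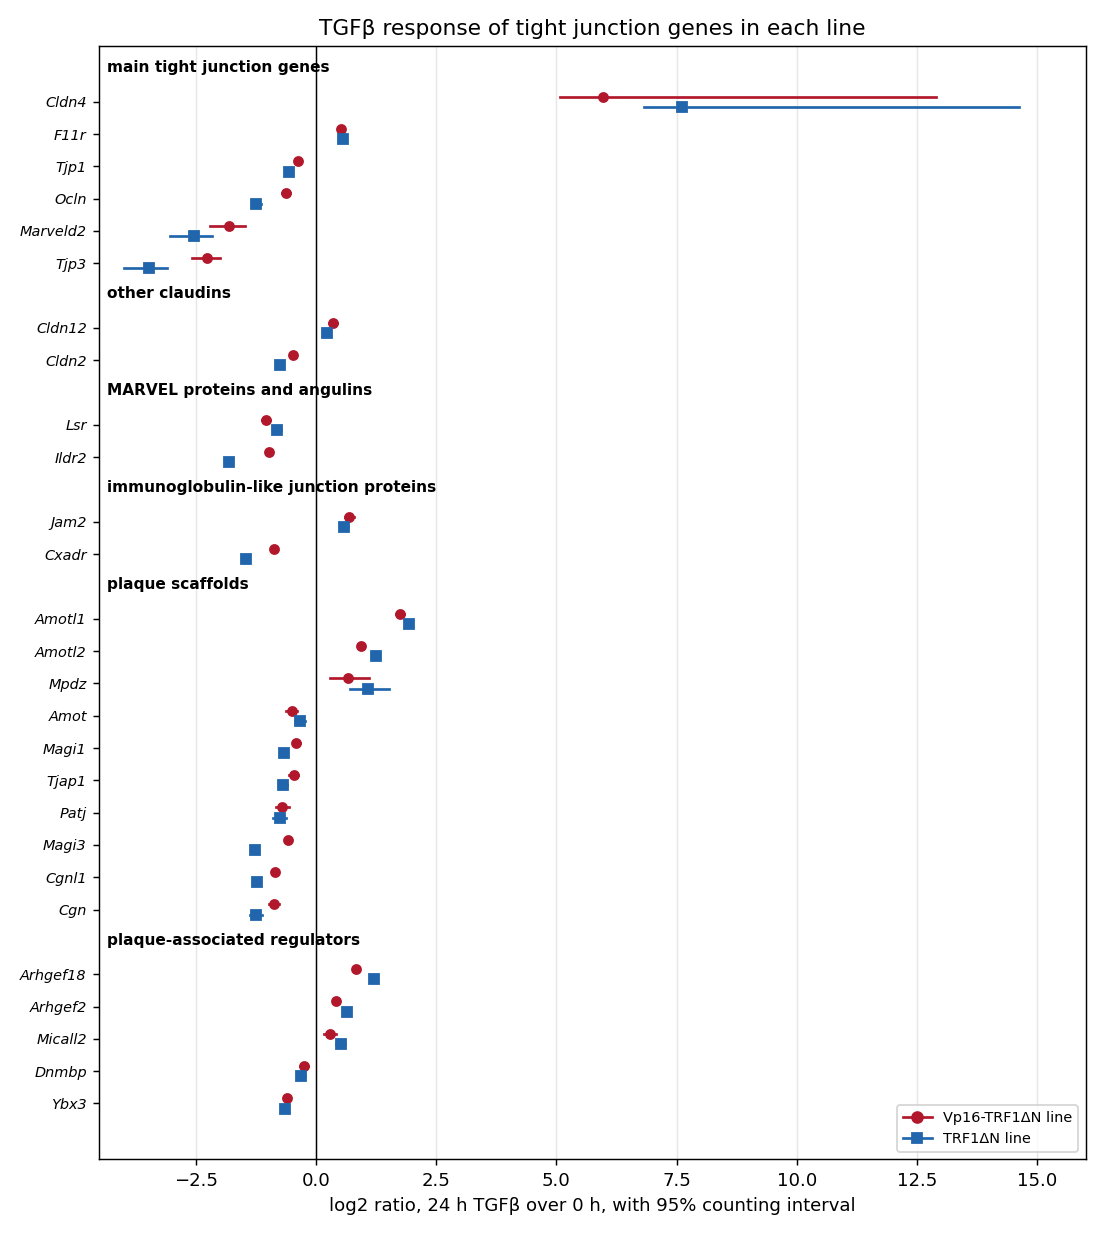
Log2 ratio of 24 h of TGFβ to 0 h in the Vp16-TRF1ΔN line (circles, upper) and the TRF1ΔN line (squares, lower) for tight junction genes called in the test and averaging 1 CPM or more, with 95% counting intervals. The points carry a prior count of 2 and the intervals do not, which sets the points of Cldn4 toward the lower ends of its intervals, and Tjp3 is at -2.26 and -3.46.

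The response was also set out within each line, where a group is 1 library and no test was possible. A gene was counted when it differed at least 2-fold, averaged at least 1 CPM and had a counting interval that excluded a ratio of 1. In the Vp16-TRF1ΔN line 1 of the 6 main genes at that level was higher after TGFβ and 2 were lower by this rule, beside 6.92% and 9.09% of 11777 genes, 16% in all. In the TRF1ΔN line 1 was higher and 3 were lower, beside 8.4% and 10.9%, 19.3% in all. Cldn4 was the higher gene in both lines, but it reached a mean of 1 CPM only through its 24 h libraries. Some difference was thus a condition of its being counted. Tjp3 and Marveld2 were lower in both lines, and Ocln passed the fold in the TRF1ΔN line. The level of Ocln at 24 h was 0.647 times that at 0 h in the Vp16-TRF1ΔN line (interval 0.610 to 0.686) and 0.424 times in the TRF1ΔN line (0.397 to 0.452). For Marveld2 the ratios were 0.282 (0.218 to 0.361) in the Vp16-TRF1ΔN line and 0.167 (0.122 to 0.224) in the TRF1ΔN line. For Tjp3 they were 0.206 (0.169 to 0.250) in the Vp16-TRF1ΔN line and 0.0872 (0.0634 to 0.117) in the TRF1ΔN line, the deepest of these ratios in each. Tjp1 stood at 0.769 (0.750 to 0.789) in the Vp16-TRF1ΔN line and 0.678 (0.662 to 0.695) in the TRF1ΔN line, and F11r at 1.44 (1.40 to 1.47) and 1.48 (1.45 to 1.52).

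The 4 main genes that fell retained more of their level in the Vp16-TRF1ΔN line. The log2 response of the Vp16-TRF1ΔN line minus that of the TRF1ΔN line was 1.20 for Tjp3 (95% counting interval 0.70 to 1.70), 0.73 for Marveld2 (0.19 to 1.27), 0.61 for Ocln (0.48 to 0.73) and 0.18 for Tjp1 (0.13 to 0.23). For F11r it was -0.05 (-0.10 to 0.00), and for Cldn4 -1.63 with an interval of -3.95 to 0.70 that includes no difference. Only Tjp3 was counted as differing at least 2-fold in response, beside 1.82% of genes upward and 0.909% downward, 2.73% in all. The fall was smaller in the Vp16-TRF1ΔN line, with an interval excluding 0, for 4 of the 4 main genes called lower and for 8 of 13 other listed ones at 1 CPM or more, against 33.7% of 3292 genes of the whole table called lower. Without regard to the interval it was smaller for 4 of 4, 11 of 13 and 63.3%. Most genes called lower thus shared the direction. Whether an interval excludes 0 also depends on the number of counts, and the sets were not matched for level. The lists were written with earlier results of these data known. Among genes called higher the rise was likewise smaller in the Vp16-TRF1ΔN line, for 2 of 2 main genes (0 with an interval excluding 0), 6 of 8 other listed ones (5 with such an interval) and 68.7% of 2954 genes of the whole table (36.4% with such an interval). Of the genes that fell, Lsr and Amot went the other way, with differences of -0.22 (-0.34 to -0.11) and -0.16 (-0.32 to -0.01). Average response and difference come from the same 4 libraries. The difference also enters the spread used to test the average response, and it has no replicate check.

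**Figure D4:**
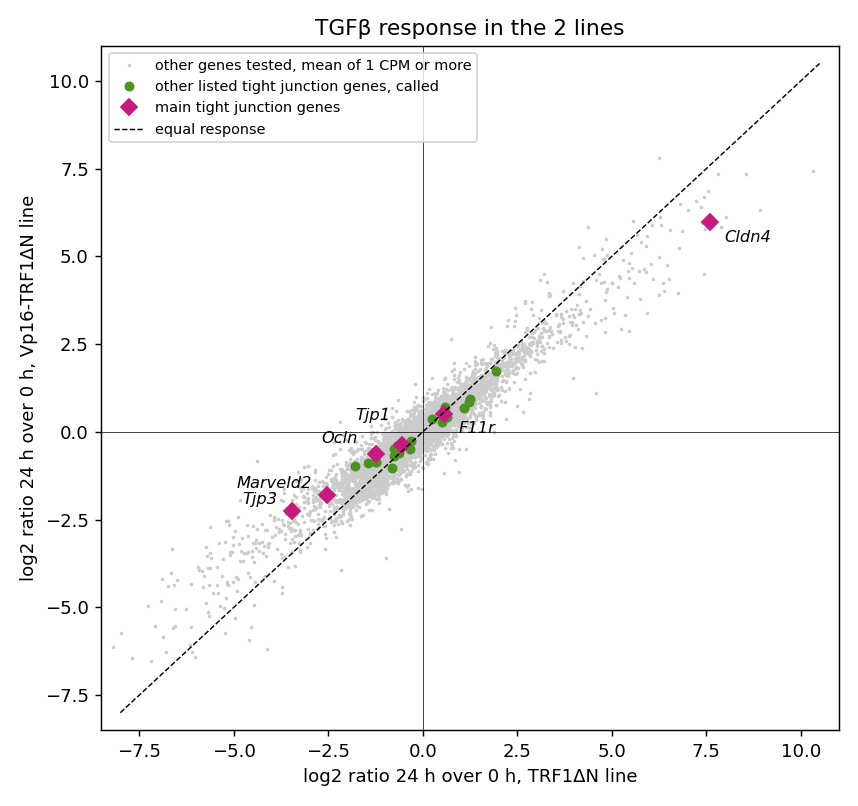
Log2 ratio of 24 h of TGFβ to 0 h in the Vp16-TRF1ΔN line (vertical) against the TRF1ΔN line (horizontal), 1 point per tested gene averaging 1 CPM or more. The dashed line marks equal responses, and Tjp3, Marveld2 and Ocln lie above it among the falling genes while Cldn4 lies below it among the rising genes.

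Between the lines, Tjp3, Marveld2, Ocln and Tjp1 were closer at 0 h than at 24 h, and F11r was not. By the same rule 1 of the 6 genes was higher and 1 lower in the Vp16-TRF1ΔN line at 24 h, beside 2.11% and 1.18% of all genes, 3.29% in all. At 0 h 0 were higher and 0 lower, beside 0.178% and 0.416%, 0.594% in all. The level of Tjp3 in the Vp16-TRF1ΔN line was 3.21 times that in the TRF1ΔN line at 24 h (interval 2.28 to 4.60) and 1.36 times at 0 h (1.22 to 1.52). That of Cldn4 was 0.332 times at 24 h (0.275 to 0.397), and at 0 h single counts allow no statement. Marveld2 stood at 1.84 times at 24 h (1.28 to 2.67) and 1.09 times at 0 h (0.940 to 1.27), and Ocln at 1.65 times at 24 h (1.53 to 1.78) and 1.08 times at 0 h (1.03 to 1.13). For Tjp1 the ratios were 1.10 at 24 h and 0.967 at 0 h, and for F11r 1.03 and 1.07.

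Averaged over both times, 0 of the 6 genes passed edgeR's quasi-likelihood test of the line, and 0 did in DESeq2's Wald test. Over all genes 0% passed edgeR's test, with 1779 genes at an unadjusted p under 0.05, and 46 passed DESeq2's. Unadjusted p was under 0.05 for Cldn4 (log2 difference -1.56 ± 0.24, SE, adjusted p = 0.397) and Tjp3 (0.87 ± 0.30, adjusted p = 0.399) in edgeR's quasi-likelihood test. Without the filter on low counts Cldn4 passed in edgeR's test (adjusted p = 0.0179), where 109 of all genes did. Its difference rests on the 24 h libraries (log2 ratio -1.58), since each 0 h library held 1 count.

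Genes with patterns like those of the main genes were found by the Euclidean distance of centred log2 CPM over the 4 libraries, among 9687 genes averaging 5 CPM or more. Nearest to Cldn4 were Kif26b, of the kinesin family (distance 0.31), and Tmeff1 (0.62). Nearest to Tjp3 were Cebpa, a transcription factor gene (0.22), and Sgsh, a lysosomal sulfamidase gene (0.22). Cebpa had log2 ratios of -2.55 and -3.57 after TGFβ in the Vp16-TRF1ΔN and TRF1ΔN lines, where Tjp3 had -2.26 and -3.46. Nearest to Marveld2 were Myo15b (0.07) and Spry1, an inhibitor of growth factor signalling (0.07), to Ocln the interferon-inducible Ifi203 (0.06) and Nceh1 (0.07), to Tjp1 the laminin chain gene Lamc1 (0.01) and Dnajc21 (0.02), and to F11r the phosphatase subunit gene Ppp2r5b (0.01) and Sfxn5 (0.02). With 4 libraries such distances describe likeness only.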

How the data were processed

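RNA of 4 libraries was depleted of ribosomal RNA, per the labels' protocols. The submitters' processing notes name the build mm10 and the tools FastQC, STAR, HTSeq and DESeq2, without versions or the step each served. Neither annotation release nor strand setting is stated in these sources. The deposited raw counts were analysed. The authors' deposited log2 values equal the log2 of a sum, the count over a size factor per library plus 1.

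Symbols, exon lengths and coordinates came from GENCODE M21 (GRCm38, the same build as mm10), with a symbol for 21889 of 21971 genes. The 4 construct rows, at most 0.0582% of the counts, were left out of library sizes and tests. Libraries were scaled by TMM in edgeR 4.0.16 (R 4.3.3). Genes passing filterByExpr were tested in an additive quasi-likelihood model of line and TGFβ, two-sided, and called at an adjusted p under 0.05. SE is the log2 change over the square root of F. The script was tested on simulated data. Within-line ratios are ratios of CPM with exact 95% Clopper-Pearson intervals conditional on the sum of counts, log2 ratios carry a prior count of 2, and intervals of differences rest on Poisson variances. Intervals cover counting error only. DESeq2 1.42.0 and the settings in the closing section were alternatives.

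Named were all listed genes, per list up to 3 called genes with the largest rise and 3 with the largest fall at a mean of 1 CPM or more, the markers, and 2 genes of similar pattern per main gene. Members and lists were chosen with earlier results of these data known. The result of 1 listed scaffold gene is not reported here.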

Additional observations from a re-analysis of the deposited data

How the results depend on the processing

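For the 6 main genes tested, the direction of the TGFβ response was the same under DESeq2's size factors, DESeq2's Wald test, no filter on low counts, mitochondrial genes left out and no line term, and the counts of 2 higher and 4 lower among them were too. In the model without the line term, leaving out each library in turn gave 1 to 2 main genes higher and 1 to 4 lower, 3 to 11 and 6 to 15 of the other listed genes, and 1013 to 3323 and 1228 to 3618 of all genes (1173 and 1352 without the Vp16-TRF1ΔN library at 0 h). The additive model could not be fitted with a residual degree of freedom on 3 libraries. DESeq2's Wald test called 5 other listed genes higher in place of 10, and 46 genes between the lines in place of 0. Without the filter on low counts 109 genes and 1 main gene (Cldn4) were called between the lines, and with mitochondrial genes left out 4 genes were. With no minimum mean, genes counted at least 2-fold became 1368 higher with TGFβ in the Vp16-TRF1ΔN line, 1879 higher and 1944 lower in the TRF1ΔN line, 417 higher and 483 lower between lines at 24 h, 179 and 206 at 0 h, and 322 and 275 for the difference of responses, since more genes were eligible. The causes of the other shifts were not tested. The line term sets 24 h against 0 h within each line. No closer pairing was possible, since each group had 1 library and the labels give no replicate numbers. A single count equals 0.0210 to 0.0292 CPM, which limits what can be said of Cldn4 at 0 h and of Cldn6.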
